A study of Saccharomyces cerevisiae with 12 samples.

Results

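The response described here is that of Δ*gcn4* cells, budding yeast without the transcription factor Gcn4, to the reducing agent DTT, as read on the 3 arrays whose titles name that strain, of 12 arrays in the series. Δ*gcn4* (Δ*gcn4*::*his5+*), Δ*gcn2* (Δ*gcn2*::*his5+*), Δ*ire1* (Δ*ire1*::*TRP1*), and the WT parent are haploid *MAT a* strains that share *ura3-1*, *his3-11,-15*, *trp1-1*, *ade2-1*, *can1-100*, and a *leu2* allele with 2 mutations. Each strain was grown in rich medium to mid-log phase and treated with 2 mM DTT for 30 min, and its mRNA was hybridized together with that of its own untreated cells to 3 two-color arrays of spotted open reading frames, in what the study calls independent experiments. A strain stands for 1 construction, and whether more than 1 isolate was grown is not given in the sources used here. Every value below compares treated with untreated cells at 1 of 6024 array elements, as a log2 ratio, so that 0 is no change and 1 is a doubling of relative mRNA abundance, and it says nothing of the level of a gene before treatment. In such bulk cultures, fewer cells that hold an mRNA and less of it in each cell cannot be told apart.

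DTT breaks disulfide bonds and so hinders the folding of secretory proteins in the endoplasmic reticulum (ER). The ER kinase and nuclease Ire1 answers by splicing *HAC1* mRNA, and the Hac1 protein made from it activates genes for chaperones, oxidation, glycosylation, degradation, and vesicle transport, a program called the unfolded protein response (UPR). Gcn4 is best known as the activator of amino acid synthesis genes, made when the kinase Gcn2 phosphorylates the initiation factor eIF2, and the study asked what it adds to the UPR. The 3 Δ*gcn4* arrays show what rises and what falls when that factor cannot take part.

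The median element of the 3 Δ*gcn4* arrays lay at −0.15, −0.19, and −0.14, and the median of the 12 arrays ranged from −0.21 to −0.06, so the deposited ratios were not centered on 0. Across all elements, which are not independent replicates, replicate 1 of Δ*gcn4* correlated with replicates 2 and 3 at 0.729 and 0.780, and replicates 2 and 3 correlated with each other at 0.906. Replicate 1 lay more than 1 from the mean of the other pair at 94 elements, against 17 for replicate 2 and 21 for replicate 3. *GCN4* itself read −0.69, −0.99, and −0.82 in Δ*gcn4* cells (−0.55, −0.86, and −0.57 in Δ*gcn2*, −0.44, −0.46, and −0.66 in Δ*ire1*, and −0.64, −0.62, and −0.50 in WT). Both channels of a Δ*gcn4* array come from cells that lack the gene, so this ratio does not check the deletion, and the signals of the separate channels were not used here. The element nevertheless passed the test as a fall in Δ*gcn4* (−0.83 ± 0.15, SD, n = 3, limma adjusted p = 4.342e-06), so a called fall of this size can occur at an element whose gene both channels lack.

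The study took short stretches of promoter from 8 genes as candidate elements that respond to ER stress, and used *KAR2* for the classical UPR element (UPRE). These sequences are shown because they tie the elements that the study named to genes read on the arrays. Motifs 2 to 7 are candidates and are not called UPREs here, and an array reads the whole source gene, not the element. The lines for motifs 1 to 8 give each motif within its promoter context in the source gene, as the study lists it. The *KAR2* line is 1 strand of an oligonucleotide that the study used as a DNA-binding probe. All are written 5′ to 3′, with the motif in capitals. UPRE-1 comes from *KAR2*, UPRE-2 (motif 1) from *ERO1*, and UPRE-3 (motif 8) from *DHH1*, and the others are motifs 2 to 7.
KAR2, UPRE-1 probe: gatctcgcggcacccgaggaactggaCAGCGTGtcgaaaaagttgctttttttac
ERO1, UPRE-2 (motif 1): atacggagTACGTGtcataaaa
DHH1, UPRE-3 (motif 8): taagaaaaAGGACAACacaatctt
BIR1, motif 2: ccttctgtTAGTGCagagtctc
EDC1, motif 3: ccgggagcGGTTCTGGcgtgttta
DOG1, motif 4: ttcttaacGACGCGCAaagaaaaa
TRK2, motif 5: gcctccagCACAATttcacaac
LHS1, motif 6: gctaattaGGCGCGCGcctcaaat
OPI3, motif 7: caggtcttCCACGTGGaactgcca

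Of these 9 source genes, 8 rose in Δ*gcn4* cells at an adjusted p under 0.05 (limma, Benjamini-Hochberg adjustment over all elements, the rule for "rose" and "fell" throughout), where 15.8% of all elements rose and 38.7% fell. The study took its source sequences from promoters of genes that the UPR induces strongly, so nothing about the elements is read from this count. *KAR2*, the Hsp70 chaperone of the ER lumen, on chromosome X, read 1.73, 1.55, and 1.79 (1.69 ± 0.13, SD, n = 3, a 3.23-fold rise, adjusted p = 2.223e-08). *ERO1*, the oxidase that supplies disulfide bonds, on chromosome XIII, read 0.97, 1.12, and 1.22 (2.15-fold, adjusted p = 2.251e-07). *DHH1*, an RNA helicase of mRNA decay, on chromosome IV, read 0.24, 1.07, and 0.48 (adjusted p = 0.0091). The arrays were close together for the UPRE-1 and UPRE-2 sources and spread widely for the UPRE-3 source, whose call was lost without replicate 2.

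Among the sources of motifs 2 to 7, *DOG1*, a sugar phosphate phosphatase, read 1.34, 1.92, and 1.88, and *LHS1*, an Hsp70-related partner of Kar2, read 1.67, 1.55, and 1.66. *OPI3*, a methyltransferase of phosphatidylcholine synthesis, read 1.11, 1.31, and 1.40. *TRK2*, a potassium transporter, read 0.67, 1.01, and 1.10. *BIR1*, a kinetochore and passenger complex protein, read 1.01, 0.58, and 0.74. All 5 were above 0 on all 3 arrays. *EDC1*, which enhances mRNA decapping, read −0.07, 0.28, and 0.52 and did not pass (adjusted p = 0.1533). For *KAR2* the other strains read 1.83, 1.82, and 1.82 in Δ*gcn2*, 0.92, 0.59, and 1.05 in Δ*ire1*, and 1.79, 1.90, and 2.20 in WT. For *ERO1* they read 1.38, 1.20, and 1.34 in Δ*gcn2*, 0.25, 0.33, and 0.53 in Δ*ire1*, and 1.90, 2.06, and 1.90 in WT. The Δ*gcn4* arrays did not overlap with those of Δ*ire1* for either gene, and for *ERO1* they also lay below every WT array (difference −0.85 ± 0.13, SE, adjusted p = 0.0014), whereas for *KAR2* the difference from WT was −0.27 ± 0.15 (SE, adjusted p = 0.4013). *DHH1* read 0.81, 1.21, and 1.28 in Δ*gcn2*, −0.07, 0.83, and −0.17 in Δ*ire1*, and 1.86, 1.62, and 1.90 in WT. Its Δ*gcn4* arrays overlapped with those of Δ*ire1* (difference 0.40 ± 0.25, SE, adjusted p = 0.2467). They lay below every WT array (difference −1.19 ± 0.25, SE, adjusted p = 0.0124). *DHH1* and *ERO1* are 12 and 107 in the numbering of the array elements, near its start. A part of that place in their differences from WT was not tested.

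In all, 949 elements rose and 2329 fell in Δ*gcn4* cells (15.8% and 38.7%), and 2746 passed neither way. Of all elements 12.8% were higher and 13.2% lower in Δ*gcn4* than in Δ*ire1*. Against Δ*gcn2* these shares were 1.88% and 4.45%, and against WT 0.863% and 1.94%. Every count for a group of genes below is to be read beside these shares. Among the rises 110 had a mean of at least 1, 34 of at least 1.5, and 5 of at least 2, and among the falls 287, 41, and 8 reached −1, −1.5, and −2. The falls were more numerous at each size. Of the rises 925 were above 0 on all 3 arrays, and of the falls 2291 were below 0 on all 3. Centering each array on its median raised the rises to 1540 and lowered the falls to 1589. All 949 rises and 1589 of the 2329 falls were called either way, and 0 changed sides, so the balance of rises to falls depends on where 0 is set.

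The element of *COS4*, a member of a subtelomeric family of membrane proteins, rose most by far in Δ*gcn4* cells, with 4.10, 5.19, and 5.41 on the 3 arrays (mean 4.90 ± 0.70, a 29.8-fold rise, adjusted p = 3.497e-11). *TIS11*, an mRNA-binding protein that acts in iron shortage, read 1.84, 2.91, and 3.13. *RTA1*, a membrane protein of lipid export, read 2.61, 1.88, and 3.02. *ULI1*, known as a gene that the UPR induces, read 2.04, 2.36, and 2.28. *PUF4*, an mRNA-binding protein, read 1.77, 2.21, and 2.44. For *COS4*, *TIS11*, and *PUF4* replicate 1 was the lowest of the arrays, and for *ULI1* the 3 arrays were within 0.32 of each other.

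The next rises were those of *SSA4*, a heat-inducible cytosolic Hsp70 (1.62, 2.52, and 1.85), *SIL1*, the nucleotide exchange factor of Kar2 (2.21, 1.77, and 1.73), and *ROQ1*, a stress-induced partner of a ubiquitin ligase (1.21, 2.03, and 2.30). *TOS3*, a kinase that acts on Snf1, read 1.67, 1.99, and 1.86, *YPS1*, a protease anchored at the cell surface, read 1.92, 1.37, and 2.04, and *DER1*, which acts in ER-associated degradation, read 1.81, 1.76, and 1.66. *SWP82*, a subunit of a chromatin remodeling complex, averaged 1.74 ± 0.54. *YFL066C*, *YIL108W*, and *YOR289W*, of which no role is given here, averaged 1.81 ± 0.17, 1.77 ± 0.10, and 1.75 ± 0.38. All 15 were above 1 on all 3 arrays. *DER1* and *YIL108W* had the smallest spread of these, and *TIS11* and *COS4* the largest.

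**Figure D1:**
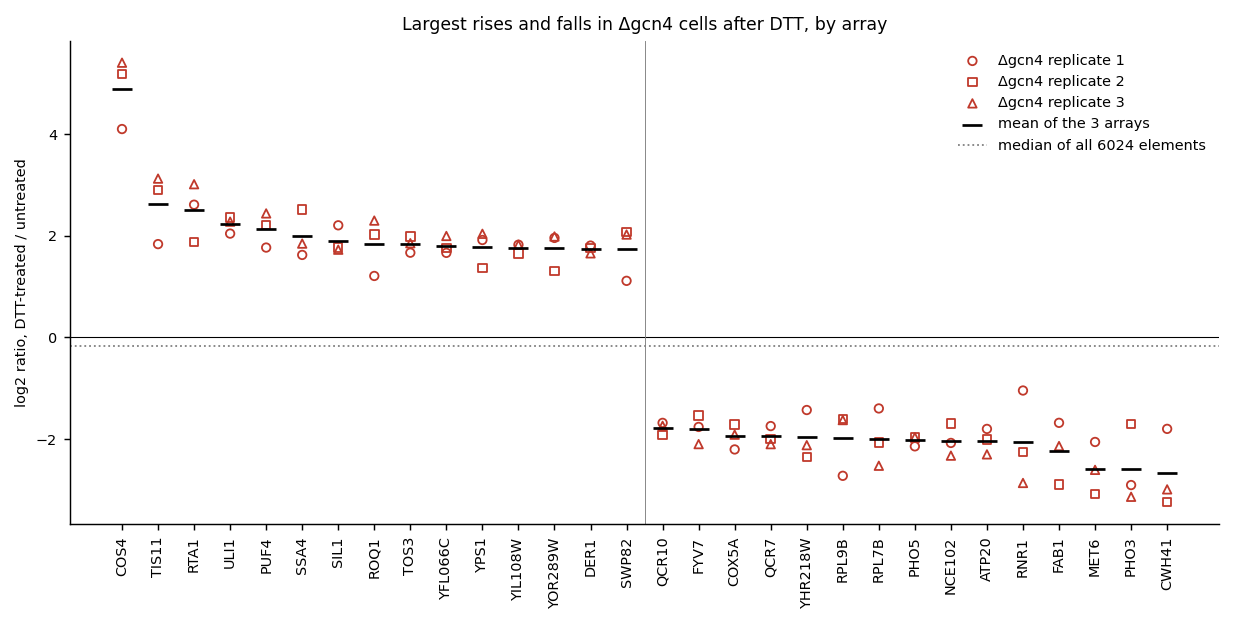
Log2 ratio after DTT, treated over untreated (y axis) on each of the 3 Δ*gcn4* arrays for the 15 elements with the highest and the 15 with the lowest mean (x axis); symbols are arrays, black bars their mean, and the dotted line the median of all elements. *COS4* stands alone at a mean of 4.90, the other rises lie between 1.74 and 2.62, and the falls between −2.68 and −1.78.

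The deepest fall was that of *CWH41*, the ER glucosidase that starts the trimming of N-linked glycans, with −1.80, −3.24, and −2.99 (6.39-fold down, adjusted p = 6.8e-08). Replicate 1 fell least. *PHO3*, an acid phosphatase that serves thiamine uptake, read −2.91, −1.71, and −3.14. *MET6*, the methionine synthase, read −2.06, −3.09, and −2.61. *FAB1*, a lipid kinase of the vacuole, read −1.68, −2.90, and −2.14, and *RNR1*, the large subunit of ribonucleotide reductase, read −1.05, −2.26, and −2.87. Each of these 5 was at least 1 below 0 on every Δ*gcn4* array, with differences of more than 1 between arrays.

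Of the other 10 deepest falls, 4 belong to mitochondrial respiration. *ATP20*, of the ATP synthase, read −1.80, −2.01, and −2.30. *QCR7* and *QCR10*, of the cytochrome *bc1* complex, averaged −1.95 ± 0.18 and −1.78 ± 0.12, and *COX5A*, of cytochrome *c* oxidase, averaged −1.95 ± 0.25. These 4 had SDs between 0.12 and 0.25. *NCE102*, a protein of plasma membrane domains, read −2.08, −1.70, and −2.33, and *PHO5*, the secreted acid phosphatase, read −2.14, −1.97, and −1.97. The ribosomal protein genes *RPL7B* and *RPL9B* averaged −2.00 ± 0.57 and −1.99 ± 0.64, *FYV7*, of ribosomal RNA processing, −1.80 ± 0.28, and *YHR218W*, at a subtelomere, −1.97 ± 0.48.

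Genes of protein folding in the ER rose without Gcn4. Of 16 measured, 11 rose and 2 fell (68.8% and 12.5%), and their median was 0.81, against −0.16 over all elements. The median of the group was 0.99 in Δ*gcn2*, −0.17 in Δ*ire1*, and 1.03 in WT. With each Δ*gcn4* array left out in turn, 10 to 11 rose. Besides *SIL1*, *KAR2*, and *LHS1*, the largest rise was that of *JEM1*, a J-protein partner of Kar2, with 1.46, 1.46, and 1.61. *SCJ1*, another J-protein, averaged 0.89 ± 0.17, and *FPR2*, a prolyl isomerase, 0.76 ± 0.22. *PDI1*, the protein disulfide isomerase, read 0.41, 0.66, and 0.50 (adjusted p = 0.0093). Every one of these was above 0 on every Δ*gcn4* array.

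The 2 members that fell were *CNE1*, the calnexin homolog (−0.75, −0.53, and −0.53), and *ROT1*, an ER chaperone of cell wall synthesis (−0.08, −0.38, and −0.34, not called after centering). *EPS1*, *CPR5*, and *ERV2* did not pass, and for *ERV2*, a thiol oxidase, replicate 1 read −1.16 while replicates 2 and 3 read 0.19 and −0.02. All 11 rises were above Δ*ire1* in a test of the difference, where 12.8% of all elements were above Δ*ire1* and 13.2% below it. Of the 16, 0 passed the test against Δ*gcn2*, where 1.88% of all elements were above and 4.45% below. Below WT were 5 of the 16, where 1.94% of all elements were below WT and 0.863% above, namely *SIL1* (difference −0.99 ± 0.17, SE), *EUG1* (−1.03 ± 0.18), *LHS1* (−1.00 ± 0.23), *MPD1* (−0.93 ± 0.15), and *ERO1*. For *SIL1* the Δ*gcn4* arrays read 2.21, 1.77, and 1.73 and the WT arrays 2.95, 2.80, and 2.91, without overlap. *EUG1*, a relative of Pdi1, read 1.12, 0.58, and 0.89 in Δ*gcn4*, against 1.64, 1.89, and 2.14 in WT. *MPD1*, another relative, read 0.88, 1.11, and 1.01 in Δ*gcn4*, against 1.84, 1.98, and 1.99 in WT. In all 3 genes the highest Δ*gcn4* array was below the lowest WT array. In the numbering of the array elements *ERO1* and *SIL1* are 107 and 120, near its start. A part of that place in these differences from WT was not tested.

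**Figure D2:**
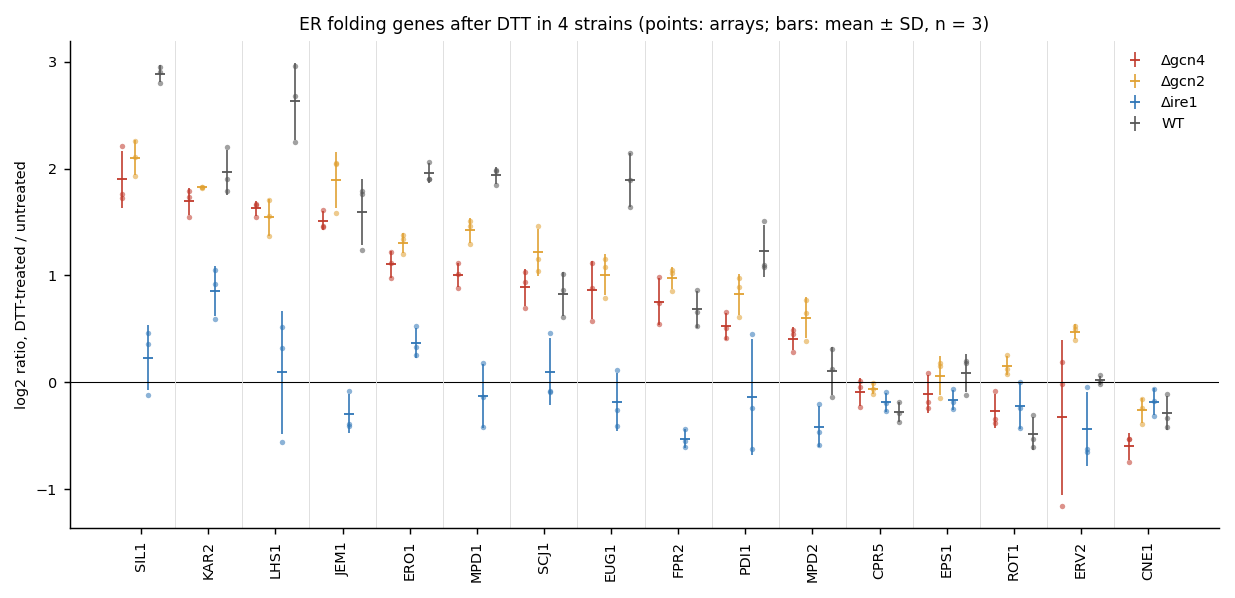
Log2 ratio after DTT, treated over untreated (y axis) for 16 genes of ER folding (x axis, in the order of their mean in Δ*gcn4*) in Δ*gcn4*, Δ*gcn2*, Δ*ire1*, and WT; points are arrays and bars the mean ± SD of 3 arrays. From *SIL1* to *MPD2* the Δ*gcn4* means lie above 0 and above those of Δ*ire1*, and for *SIL1*, *LHS1*, *ERO1*, *MPD1*, and *EUG1* they lie below those of WT.

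Of 16 genes of ER-associated degradation, 9 rose and 2 fell, with a median of 0.34. *DER1* led, followed by *HRD3*, a partner of the ubiquitin ligase Hrd1, with 1.20, 1.26, and 1.42. *DFM1*, a relative of Der1, read 0.77, 0.68, and 1.22, and *UBX2*, which recruits Cdc48 to the ER, read 0.37, 0.79, and 1.04. *HRD1*, the ligase itself, read 0.40, 0.22, and 0.52, against 1.61, 1.34, and 2.02 in WT (difference −1.28 ± 0.20, SE, adjusted p = 0.0018). The Δ*gcn4* arrays of *HRD1* thus lay between 0.22 and 0.52 and the WT arrays above 1.3. The falls were those of *MNL1*, a mannosidase (−0.90 ± 0.03), and *UBC7*, the ubiquitin-conjugating enzyme of the pathway (−0.83 ± 0.20).

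Of 27 genes of N-glycosylation, 11 rose and 4 fell, with a median of 0.18. *ALG3*, a mannosyltransferase, read 0.51, 2.16, and 1.89. *ALG6*, a glucosyltransferase, read 1.12, 0.83, and 1.24, and *ALG7*, which makes the first step of the lipid-linked glycan, read 0.92, 1.02, and 1.12. The last pair was even across arrays, and for *ALG3* replicate 1 was more than 1 below the others. *CWH41*, which acts at the opposite end of the pathway, had the deepest fall of all elements. Among 26 genes of O-mannosylation and GPI anchors 6 rose, 5 fell, and 15 did not pass, and their median was −0.06. *PMT3*, a protein mannosyltransferase, read 0.77, 0.90, and 1.61, and *MCD4*, of GPI anchor synthesis, read 0.91, 1.19, and 1.15, while *PMT1* fell at −0.86, −0.86, and −0.34. Below WT were 7 of the 26, with differences of −1.82 ± 0.16 for *PMT1* and −1.27 ± 0.25 for *LAS21*, of GPI anchor synthesis, and 0 were above.

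Of 21 genes of translocation into the ER, 4 rose and 8 fell (19% and 38.1%, beside 15.8% and 38.7% of all elements). *SEC63*, of the translocon, averaged 0.48 ± 0.44, and the falls were led by *SRP14*, of the signal recognition particle, at −0.76 ± 0.01, and by *SEC72* at −0.72 ± 0.07. Of 27 genes of vesicle coats and cargo receptors 13 rose and 9 fell, with a median of 0.23. *SEC23*, of the COPII coat, read 0.37, 1.51, and 1.43, and *SFB2*, a relative of the coat protein Sec24, read 0.95, 1.17, and 0.93. Against these, *ERV25*, a cargo receptor of the p24 family, read −1.34, −0.88, and −1.62, and *SFB3*, another relative of Sec24, averaged −0.74 ± 0.10. Of 16 genes of inositol and phospholipid synthesis, 5 rose and 7 fell (31.2% and 43.8%), and after centering 5 rose and 3 fell. *INO1*, the inositol synthase, read 1.47, 1.57, and 1.73, against 2.34, 2.71, and 2.87 in Δ*gcn2*, 0.48, 0.23, and 0.45 in Δ*ire1*, and 2.03, 1.95, and 2.48 in WT. It rose in Δ*gcn4* less than in Δ*gcn2* (difference −1.05 ± 0.17, SE, adjusted p = 0.0064) and more than in Δ*ire1* (adjusted p = 0.0002057). *PIS1*, the phosphatidylinositol synthase, fell at −0.80 ± 0.38.

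*HAC1* mRNA rose in Δ*gcn4* cells with 0.23, 1.25, and 1.71 (adjusted p = 0.0045), widely spread and lowest on replicate 1, and without replicate 3 the call was lost. *TRL1*, the ligase that joins the spliced *HAC1* mRNA, fell at −0.67 ± 0.25, and *PTC2*, a phosphatase that acts on Ire1, read −0.46, 0.25, and −0.12 and did not pass. Of 24 genes of sterol synthesis 14 fell and 1 rose. *ERG5* and *ERG11*, of ergosterol synthesis, averaged −1.40 ± 0.28 and −1.00 ± 0.13, and the rise was that of *HMG2*, an isoform of the rate-limiting reductase, with 0.47, 0.83, and 1.25. *HMG1*, the other isoform, averaged −0.85 ± 0.22, so the pair moved in opposite directions.

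Of 62 genes of amino acid synthesis, the class that Gcn4 is known to activate, 3 rose, 31 fell, and 28 did not pass in Δ*gcn4* cells (4.84% rose and 50.0% fell, beside 15.8% and 38.7% of all elements), and the median was −0.27 (−0.42 in Δ*gcn2*, −0.43 in Δ*ire1*, and −0.52 in WT). Centered on the median of each array, 7 of the 62 rose and 19 fell, beside 1540 and 1589 of the 6024 elements. *GLN1*, the glutamine synthetase, read −0.99, −1.62, and −1.53, *ARG3*, of arginine synthesis, −1.51, −1.11, and −1.24, and *HIS6*, of histidine synthesis, −0.94, −0.91, and −0.98. The rises were those of *HIS4*, of histidine synthesis (0.75, 0.53, and 0.68), *ASN2*, an asparagine synthetase (0.33, 0.42, and 0.26), and *TYR1*, of tyrosine synthesis (0.55, 0.05, and 0.25). *HIS4* was above 0.5 on all 3 Δ*gcn4* arrays. In Δ*ire1* it read −1.02, −0.85, and −0.56. The difference of Δ*gcn4* from Δ*ire1* was 1.46 ± 0.17 (SE, adjusted p = 5.211e-05), and from WT 0.26 ± 0.17 (adjusted p = 0.5004). Against WT, 1 of the 62 was higher in Δ*gcn4* (*ILV6*) and 0 were lower.

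Of 19 genes of amino acid transport, 10 fell and 1 rose (52.6% and 5.26%, beside 38.7% and 15.8% of all elements). After centering 5 fell and 3 rose. The rise was that of *SSY1*, the sensor of external amino acids (1.07, 0.71, and 1.02), and the deepest fall that of *PUT4*, the proline permease (−0.91, −2.01, and −1.68). Of 18 cytosolic tRNA synthetases 10 fell and 0 rose, with a median of −0.26 in Δ*gcn4*, −0.78 in Δ*gcn2*, −0.49 in Δ*ire1*, and −0.31 in WT, and 5 were higher in Δ*gcn4* than in Δ*gcn2*. *CDC60*, for leucine, read −0.36, −0.87, and −0.77, against −1.25, −1.40, and −1.14 in Δ*gcn2*, and *MES1*, for methionine, read −0.11, −0.26, and −0.44, against −0.88, −1.00, and −0.98 in Δ*gcn2*. The 2 strains did not overlap for either gene. Of 16 genes of purine synthesis 8 fell (50%, beside 38.7% of all elements) and 1, *ADE16* (0.56 ± 0.10), rose. After centering 6 fell and 2 rose. Of 19 genes of the Gcn2 and eIF2 pathway 8 fell and 0 rose (42.1% fell, beside 38.7% of all elements), and after centering 4 fell. *SUI3*, the beta subunit of eIF2, averaged −0.86 ± 0.20 and *GCN3*, a subunit of its exchange factor, −0.56 ± 0.14. *GCN2* read 0.35, −0.28, and −0.04.

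Of 26 genes of sulfate assimilation and methionine synthesis 14 fell and 2 rose, with a median of −0.43. Besides *MET6*, the S-adenosylmethionine synthetases *SAM2* and *SAM1* fell, at −1.39 ± 0.33 and −1.14 ± 0.25. The rises were those of the sulfate permease *SUL2* (0.37 ± 0.27) and of *MET22* (0.35 ± 0.09), a phosphatase of the pathway. Without replicate 2 the median was −0.21, so it rests partly on that array.

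Many cytosolic heat shock genes were lower in Δ*gcn4* than in Δ*ire1*. Of 23, 9 rose, 1 fell, and 13 did not pass, with a median of 0.24 (0.47 in Δ*gcn2*, 0.73 in Δ*ire1*, and 0.49 in WT). *SSA4*, *SSE2*, an Hsp110 (1.06, 1.09, and 1.50), and *PIN3* (0.37, 1.40, and 1.43) led. Below Δ*ire1* were 13 of the 23, below Δ*gcn2* 3, and below WT 2. Of all elements 13.2% were below Δ*ire1*, 4.45% below Δ*gcn2*, and 1.94% below WT. *HSP104*, the disaggregase, read 0.25, 0.64, and 0.31 in Δ*gcn4*, against 0.92, 0.84, and 0.32 in Δ*gcn2*, 1.67, 1.62, and 2.25 in Δ*ire1*, and 1.50, 1.48, and 1.43 in WT. The Δ*gcn4* arrays lay below those of Δ*ire1* and WT (adjusted p = 0.0001242 and 0.004) and overlapped with those of Δ*gcn2*. *HSP26*, a small heat shock protein, read 0.22, 0.80, and 0.65 in Δ*gcn4*, against 1.89, 1.93, and 1.75 in Δ*gcn2*, 1.16, 1.12, and 1.63 in Δ*ire1*, and 0.32, 0.72, and 0.29 in WT. Here the arrays of Δ*gcn4* and WT overlapped, and those of the other strains were higher.

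Of 27 genes of general stress and reserve carbohydrate 12 rose and 4 fell. *GLK1*, glucokinase, read 1.36, 1.66, and 1.75, and *GSY1*, a glycogen synthase, averaged 1.16 ± 0.26. *YGP1*, a secreted stress protein, fell to −1.55, −1.01, and −1.24 in Δ*gcn4*, against 0.26, 0.29, and 0.66 in Δ*ire1*, where no array was below 0. *GPH1*, glycogen phosphorylase, averaged −0.99 ± 0.23. Of 30 genes of redox defence 6 rose and 15 fell (20% and 50%, beside 15.8% and 38.7% of all elements). After centering 9 rose and 8 fell. *GPX2*, a peroxidase, read 0.47, 1.21, and 1.87 and *TSA2*, a peroxiredoxin, averaged 0.61 ± 0.19, while *GRX4*, a glutaredoxin that also regulates iron genes, read −1.34, −1.39, and −1.52 and *TRX1*, a thioredoxin, averaged −0.78 ± 0.09. Of 16 vacuolar proteases and autophagy genes 9 rose and 1 fell, led by the aminopeptidase *APE1* (1.06, 1.14, and 1.38) and the proteases *PRB1* (0.59, 0.90, and 1.37) and *PEP4* (0.94, 0.60, and 0.79). Without replicate 2 or replicate 3 of Δ*gcn4* only 5 of these rose.

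Of 25 genes of iron uptake and use 12 rose and 5 fell. *TIS11*, the siderophore transporters *ARN2* (1.16, 1.44, and 1.35) and *ENB1* (0.33, 1.47, and 1.25), and the mitochondrial carrier *MRS4* (0.85 ± 0.53) led. *ARN2* read 0.13, 0.21, and −0.02 in Δ*gcn2*, with a difference of 1.21 ± 0.13 (SE, adjusted p = 0.0008211), and the groups did not overlap. It read 1.25, 1.24, and 1.03 in Δ*ire1* and 1.39, 1.46, and 1.24 in WT. Neither of these strains differed from Δ*gcn4* in the tests, so Δ*gcn2* was the strain that stood apart. Of 11 genes of zinc uptake 6 fell and 2 rose, with *IZH1* at −1.46 ± 0.15 and *ZRT1*, the high-affinity transporter, at −0.98 ± 0.07, and *ZAP1*, the zinc-responsive activator, at 0.77 ± 0.34. Of 26 cell wall genes 8 rose and 11 fell (30.8% and 42.3%, beside 15.8% and 38.7% of all elements). *YPS1* and *GSC2*, a glucan synthase subunit (1.35, 0.99, and 1.87), were at the top, and *PST1*, a wall protein, at the bottom (−1.51, −1.56, and −1.59). Of 36 proteasome genes 6 rose and 4 fell (16.7% and 11.1%, beside 15.8% and 38.7% of all elements), with a median of 0.08. After centering 18 rose and 1 fell, so that count depends on where 0 is set.

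Genes of translation and respiration fell broadly. Of 124 genes of cytosolic ribosomal proteins 121 fell and 0 rose, with a median of −0.98 and means between −2.00 and −0.07, and after centering 118 still fell. The 3 that did not pass were *RPL15B* (−0.19 ± 0.26), *RPL37A* (−0.25 ± 0.11), and *RPS4B* (−0.07 ± 0.03). Near-identical gene pairs share much of their sequence, so readings of such partners on spotted open reading frames may not be separate measurements, and the same holds for *PHO11* and *PHO12*, *HXT6* and *HXT7*, and *THI5* and its copies below. Of the 124, 13 were higher in Δ*gcn4* than in WT and 0 lower, and the median of the group was −1.04 in Δ*gcn2*, −0.90 in Δ*ire1*, and −1.25 in WT. *RPP0*, of the ribosomal stalk, read −0.48, −0.32, and −0.39 in Δ*gcn4*, against −1.00, −1.08, and −1.13 in Δ*gcn2*, −1.23, −0.99, and −0.71 in Δ*ire1*, and −1.20, −1.03, and −1.18 in WT. It was the 1 element that passed all 3 tests as higher in Δ*gcn4* than in another strain, and was named for that. No array of another strain overlapped with those of Δ*gcn4*, which such a choice favors.

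Of 95 elements for genes of ribosome biogenesis, of which *PWP2* has 3, 90 fell and 0 rose, with a median of −0.72, against −1.07 in Δ*gcn2*, −0.58 in Δ*ire1*, and −0.67 in WT, and 14 were higher in Δ*gcn4* than in Δ*gcn2*. *NOP15* read −1.45, −1.38, and −1.50 and *UTP23* −1.20, −1.22, and −1.38. Of 53 mitochondrial ribosomal protein genes 38 fell and 2 rose, with a median of −0.46. Of 50 genes of the respiratory chain and ATP synthase 41 fell and 2 rose, with a median of −0.97, against −0.73 in Δ*gcn2*, −0.54 in Δ*ire1*, and −1.17 in WT. Below Δ*ire1* were 24 of the 50. *CYT1*, cytochrome *c1*, read −1.42, −1.91, and −1.79. The rises were those of *COX20* (0.54, 1.00, and 1.23) and *COX18* (0.77, 0.92, and 0.80), which act in the assembly of cytochrome *c* oxidase and are not subunits of it.

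Of 15 genes of phosphate uptake and storage 12 fell and 0 rose, with a median of −0.94. *PHO5*, its relatives *PHO11* (−1.73 ± 0.27) and *PHO12* (−1.48 ± 0.25), and the transporter *PHO84* (−0.78, −1.23, and −1.54) were among them. *PHO89*, a phosphate transporter coupled to sodium, fell to −1.20, −1.16, and −0.93 in Δ*gcn4*, against 0.51, 1.17, and 0.57 in Δ*ire1* (difference −1.85 ± 0.19, SE, adjusted p = 1.935e-05). All 9 histone genes fell, with means between −1.11 (*HHT1*) and −0.48 (*HTZ1*). Of 16 genes of the G1 and S phases 6 fell, led by *RNR1*, and 3 rose, among them the cyclin *PCL1* (1.32, 0.79, and 1.35). These were 37.5% and 18.8% of the group, beside 38.7% and 15.8% of all elements. Of 16 mating genes 8 fell and 0 rose (50% fell, beside 38.7% of all elements), and after centering 6 fell and 3 rose. Among the falls were *STE2*, the pheromone receptor of **a** cells (−0.97, −1.20, and −1.44), and *MFA2*, a gene of their pheromone (−1.16, −1.28, and −1.40). Of 22 genes of hexose transport 9 fell and 3 rose (40.9% and 13.6%, beside 38.7% and 15.8% of all elements). They ran from *HXT7* at −1.32 ± 0.26 to *HXT5* at 1.00 ± 0.43. Of 15 thiamine genes 5 rose and 3 fell, with *THI21* at 1.01 ± 0.88. Of 18 genes of carbon use that glucose represses, 6 fell and 2 rose (33.3% and 11.1%, beside 38.7% and 15.8% of all elements). Of 7 mitochondrial chaperones 1 fell and 1 rose. Of 20 sporulation genes, chosen as silent in growing haploids, 7 fell and 2 rose (35.0% fell, beside 38.7% of all elements). The level behind the ratios of such genes is not known here, since channel signals were not used.

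Members of the *COS* family rose together. Of 12 measured, 10 rose and 1, *COS111*, fell, with a median of 0.93 (1.11 in Δ*gcn2*, 0.19 in Δ*ire1*, and 0.69 in WT). Beside *COS4* at 4.90, *COS7* read 1.40, 1.16, and 1.53 and *COS8* 1.10, 1.02, and 0.98. Without *COS4* the Δ*gcn4* means of the rises lay between 0.32 and 1.36. Of the 12, 8 were above Δ*ire1*, and 0 passed the test against Δ*gcn2* or WT. These genes are close copies of each other, so their elements may read each other's mRNA.

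**Figure D3:**
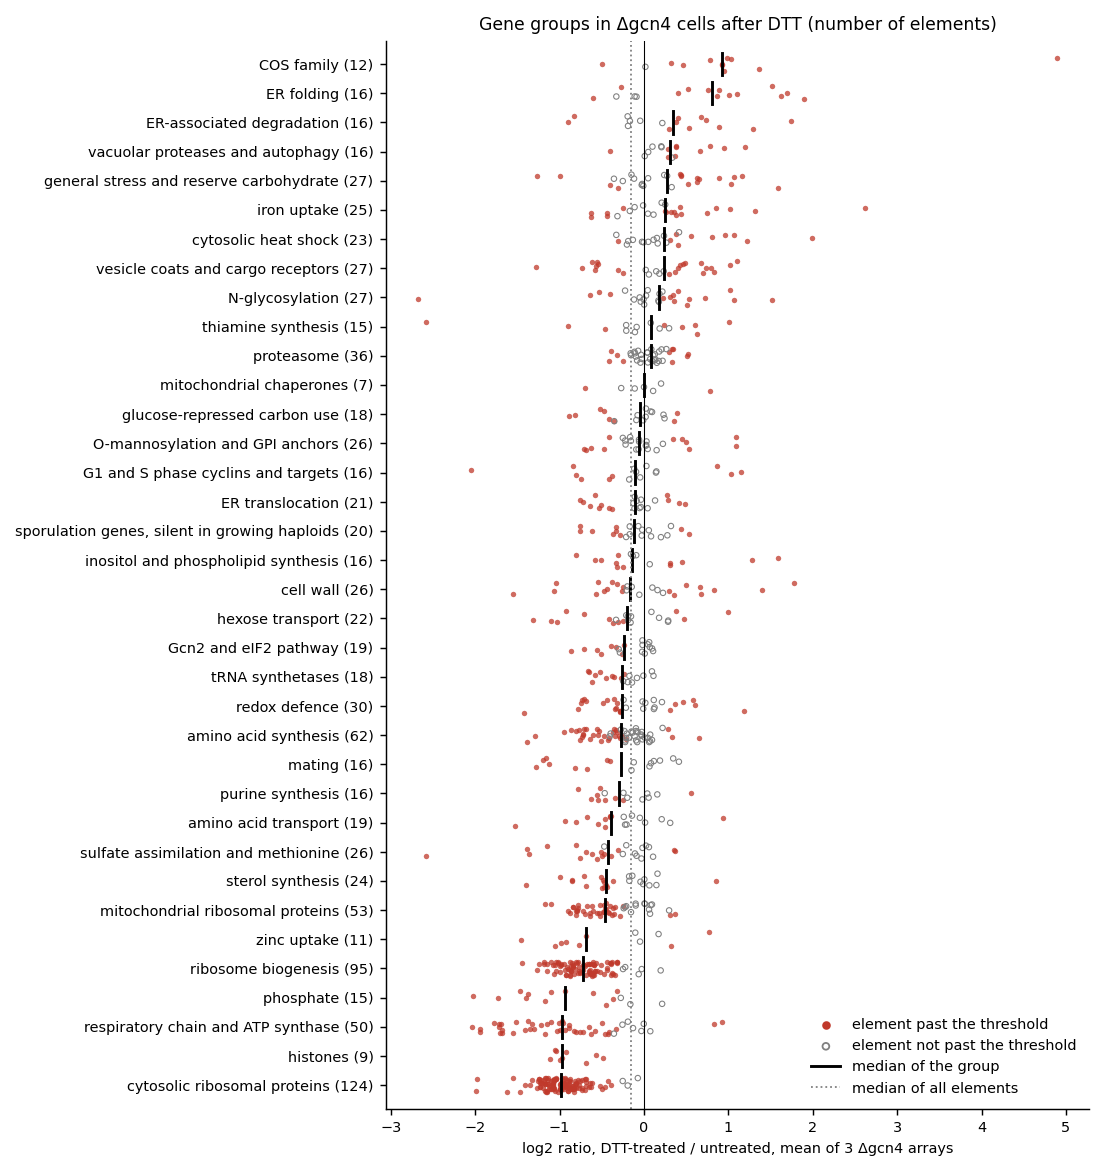
Mean log2 ratio after DTT, treated over untreated Δ*gcn4* cells (x axis, 3 arrays) for every measured element of 36 gene groups (y axis, number of elements in brackets); filled points passed the test against 0, open points did not, black bars are group medians, and the dotted line is the median of all elements. Groups run from the *COS* family (median 0.93) and ER folding (0.81) to histones and cytosolic ribosomal proteins (both −0.98).

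Of the 949 rises in Δ*gcn4*, 845 also rose in Δ*gcn2* (89.0% of the Δ*gcn4* rises and 55.6% of the 1520 in Δ*gcn2*), 311 in Δ*ire1* (32.8% and 42.4% of 733), and 720 in WT (75.9% and 65.0% of 1108). The opposite direction was called for 0 of them in Δ*gcn2*, 132 in Δ*ire1*, and 4 in WT. Of the 2329 falls 1838 fell in Δ*gcn2* (78.9%), 1400 in Δ*ire1* (60.1%), and 1889 in WT (81.1%). Over all 6024 elements 1520 rose and 2280 fell in Δ*gcn2*, 733 and 2145 in Δ*ire1*, and 1108 and 2352 in WT. How much sharing such totals alone would give was not tested. No array is common to any of these strains. Over the 949 rises the median was 0.51 in Δ*gcn4*, 0.69 in Δ*gcn2*, 0.13 in Δ*ire1*, and 0.51 in WT. Because Δ*gcn4* chose these genes, its own median is a description and tends to be high.

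**Figure D4:**
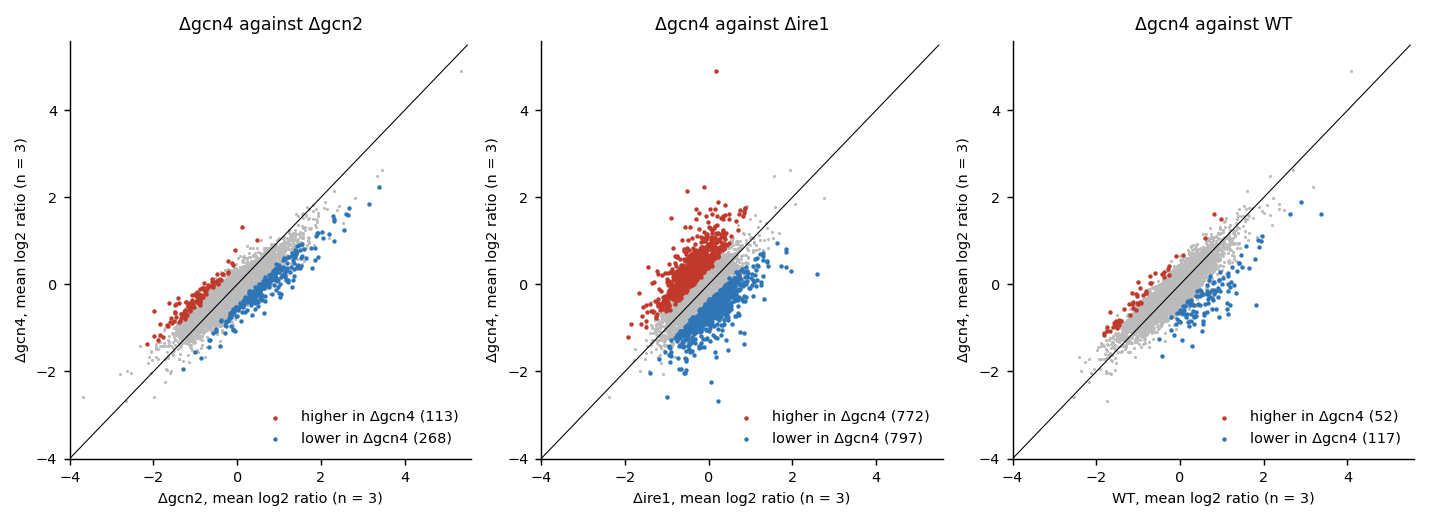
Mean log2 ratio after DTT, treated over untreated, in Δ*gcn4* (y axis) against Δ*gcn2*, Δ*ire1*, and WT (x axes) for 6024 elements, 3 arrays each; red elements were higher and blue ones lower in Δ*gcn4* at an adjusted p under 0.05, and the line marks equal values. The called elements number 113 and 268 against Δ*gcn2*, 772 and 797 against Δ*ire1*, and 52 and 117 against WT.

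In direct tests, 113 elements were higher and 268 lower in Δ*gcn4* than in Δ*gcn2*. Over the 268 the median was −0.04 in Δ*gcn4*, against 0.65 in Δ*gcn2*, and 204 of them rose in Δ*gcn2*. The 113 had a median of −0.37 in Δ*gcn4*, against −0.99 in Δ*gcn2*, so in both directions the readings of Δ*gcn4* were nearer to 0. Over all elements the SD of the arrays was 0.51 to 0.59 in Δ*gcn4*, against 0.61 to 0.71 in Δ*gcn2*, and with all arrays scaled to one spread 25 were higher and 32 lower. The part of this overall spread in single genes was not tested. *HO*, the endonuclease of mating type switching, read −0.28, −0.61, and −0.95 in Δ*gcn4*, against −1.79, −1.90, and −2.24 in Δ*gcn2*, and *LEU9*, of leucine synthesis, read −0.15, −0.31, and −0.81 in Δ*gcn4*, against −1.54, −1.47, and −1.85 in Δ*gcn2*. *YPT53*, a small GTPase of endocytosis, read −0.10, 0.28, and 0.95 in Δ*gcn4*, against 1.55, 1.59, and 2.22 in Δ*gcn2*, and *THI5*, of thiamine synthesis, read 0.58, 0.33, and 0.96 in Δ*gcn4*, against 1.85, 1.85, and 2.12 in Δ*gcn2*. These genes were chosen for their differences, and in each the groups did not overlap. In Δ*ire1* and WT *HO* averaged −0.48 and −0.43, *LEU9* −0.70 and −0.78, *YPT53* 1.09 and 0.83, and *THI5* −0.75 and 0.09. None of them passed the test of Δ*gcn4* against WT, and only *THI5* passed that against Δ*ire1*. The counts rest on single arrays. Without Δ*gcn4* replicate 1 they were 33 and 79, without Δ*gcn4* replicate 2 37 and 76, and without Δ*gcn2* replicates 1, 2, and 3 they were 35 and 103, 25 and 65, and 7 and 18.

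Against Δ*ire1*, which cannot splice *HAC1* mRNA, 772 elements were higher in Δ*gcn4* and 797 lower. Over the 772 the median was 0.34 in Δ*gcn4*, against −0.36 in Δ*ire1*, and over the 797 it was −0.54 in Δ*gcn4*, against 0.11 in Δ*ire1*. Of the 772, 429 rose in Δ*gcn4* and 32 in Δ*ire1*, and of the 797, 587 fell in Δ*gcn4* and 146 in Δ*ire1*. *COS4* read 0.11, 0.21, and 0.21 in Δ*ire1*, a difference of 4.72 ± 0.24 (SE, adjusted p = 1.141e-08). *PUF4* read −0.44, −0.42, and −0.72 and *ULI1* 0.08, −0.18, and −0.23 in Δ*ire1*, and *DER1* −0.05, −0.51, and −0.37. None of these 4 reached 0.3 on any Δ*ire1* array. In the other direction, *CWH41* read 0.24, 0.04, and 0.38 in Δ*ire1*, *FAB1* 0.00, −0.06, and 0.26, and *BTN2*, which sorts misfolded proteins, 2.56, 2.06, and 3.12, against 0.06, 0.78, and −0.13 in Δ*gcn4*. The deepest Δ*gcn4* fall was thus no fall in Δ*ire1* on any array. Without Δ*gcn4* replicate 2 the elements lower in Δ*gcn4* numbered 515, and without replicate 3 they were 512 higher and 508 lower.

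Against WT, the parent strain, 52 elements were higher in Δ*gcn4* and 117 lower. Of the 117, 86 rose in WT, and 17 rose and 65 fell in Δ*gcn4*, with medians of −0.40 in Δ*gcn4* and 0.64 in WT. *MGR1*, of a mitochondrial protease complex, read −0.61, −0.76, and −0.03 in Δ*gcn4*, against 1.69, 2.11, and 1.64 in WT, and in Δ*gcn2* (−0.13, −0.29, and −0.11) and Δ*ire1* (−0.31, −0.35, and 0.07) it was near or below 0 as well. *PMT1* averaged −0.69 ± 0.30 in Δ*gcn4*, −0.18 ± 0.10 in Δ*gcn2*, −0.31 ± 0.02 in Δ*ire1*, and 1.14 ± 0.26 in WT. The COPI coat genes *SEC26* and *SEC27* read −0.48, −0.77, and −0.41 for *SEC26* and −0.48, −0.65, and −0.57 for *SEC27* in Δ*gcn4*, against 1.06, 1.14, and 1.17 for *SEC26* and 0.60, 0.47, and 1.19 for *SEC27* in WT. These 4 genes rose in WT and in none of the deletion strains. *YET2*, an ER membrane protein, rose in Δ*gcn4* with 1.52, 1.51, and 1.80, against 3.24, 3.14, and 3.74 in WT (difference −1.76 ± 0.22, SE, adjusted p = 0.0002288), and *SEC59*, the dolichol kinase, read 0.24, 0.27, and 0.41, against 1.21, 1.35, and 1.56 in WT. Among the 52, whose median was −0.42 in Δ*gcn4* and −1.04 in WT, *ILV6*, of branched-chain amino acid synthesis, read −0.29, 0.24, and 0.23 in Δ*gcn4*, against −1.28, −0.71, and −1.01 in WT. *CYB5*, cytochrome *b5*, read −0.25, −1.05, and −0.61 in Δ*gcn4*, against −2.00, −1.49, and −1.53 in WT, and *YAH1*, a mitochondrial ferredoxin, read −0.33, 0.15, and −0.45 in Δ*gcn4*, against −1.15, −0.91, and −1.36 in WT. All 3 genes fell in WT and lay nearer to 0 in Δ*gcn4*, without overlap, and they were chosen for their differences. In Δ*gcn2* they averaged −0.14 ± 0.25, −0.51 ± 0.15, and −0.32 ± 0.25, and none passed the test of Δ*gcn4* against Δ*gcn2*. In the numbering of the array elements *ILV6*, *CYB5*, and *YAH1* are 655, 4732, and 5796. *MGR1*, *PMT1*, *SEC26*, and *YET2* are 1, 2, 69, and 110, near its start. So are *DHH1*, *LAS21*, *DFM1*, *ERO1*, and *SIL1*, also lower than in WT, at 12, 13, 72, 107, and 120. A part of that place was not tested. The count of 52 shrank to 18 without WT replicate 1, 23 without WT replicate 3, 27 and 23 without Δ*gcn4* replicates 2 and 3, and 28, 30, and 32 without Δ*gcn2* replicates 1, 2, and 3, and the count of 117 to 77 without WT replicate 3.

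Genes altered in the strains were read too. *HIS3* read −0.15, −0.11, and −0.02 in Δ*gcn4* cells and −0.10, −0.30, and −0.33 in those of Δ*gcn2*, both of which carry *his5+* as their marker, −0.98, −0.93, and −0.81 in Δ*ire1*, and −1.00, −0.81, and −1.07 in WT. It was higher in Δ*gcn4* than in WT (difference 0.87 ± 0.13, SE, adjusted p = 0.0009421), and a part of the marker in this was not tested. *URA3* averaged −0.58 ± 0.20, *TRP1* −0.11 ± 0.18, *LEU2* −0.20 ± 0.28, and *ADE2* −0.04 ± 0.11 in Δ*gcn4*, and 0 of these 4 passed the test against another strain.

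A single test of Δ*gcn4* against the mean of the other 3 strains called 87 elements higher (1.44%) and 166 lower (2.76%). Because Δ*ire1* is one of the 3, a gene that rises in every strain with Ire1 comes out high here. *COS4*, *PUF4*, *ALG3*, and *DER1* were of this kind, since they rose in Δ*gcn4*, Δ*gcn2*, and WT and passed the test of Δ*gcn4* against Δ*ire1* only. *URA6*, uridylate kinase, read 0.48, 0.67, and 0.81 in Δ*gcn4*, against −0.03, 0.16, and 0.07 in Δ*gcn2*, −0.80, −1.00, and −0.50 in Δ*ire1*, and −0.40, 0.19, and −0.07 in WT. Its lowest Δ*gcn4* array was above every array of the others, and the difference from their mean was 0.92 ± 0.14 (SE, adjusted p = 0.003). Against Δ*gcn2* alone the difference was 0.59 ± 0.17 (SE) and did not pass (limma adjusted p = 0.0505). *MRN1*, an RNA-binding protein, read 1.45, 0.61, and 0.32 in Δ*gcn4*, against 0.17, −0.22, and −0.07 in Δ*gcn2*, −0.17, −0.23, and −0.11 in Δ*ire1*, and 0.57, 0.13, and −0.11 in WT. The last set overlapped with the Δ*gcn4* arrays, of which replicate 1 was the highest.

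Lower in Δ*gcn4* than in each of the other strains, by 3 separate tests, were 6 elements, all of which fell in Δ*gcn4*. They were *DPM1*, *SEC26*, *ERV25*, *MED4*, *UBC7*, and *SEC72*, and naming them was a choice made after their values were seen. In the numbering of the 6024 array elements they are 11, 69, 54, 123, 109, and 102, so all lie near its start. *RPP0*, higher in each of the same tests, is 4052. A part of the place in this numbering was not tested, so these elements may not be separate observations. *DPM1*, which makes the mannose donor dolichol phosphate mannose, read −1.88, −1.25, and −1.10 in Δ*gcn4*, against −0.18, −1.01, and −0.04 in Δ*gcn2*, −0.93, −0.60, and −0.24 in Δ*ire1*, and 0.08, 0.51, and 0.24 in WT. *UBC7* read −1.06, −0.78, and −0.67, against −0.26, −0.20, and −0.20 in Δ*gcn2*, −0.27, −0.16, and −0.10 in Δ*ire1*, and 0.14, 0.48, and 0.14 in WT. *SEC72* read −0.69, −0.80, and −0.67, against 0.01, −0.16, and 0.15 in Δ*gcn2*, −0.23, −0.23, and −0.13 in Δ*ire1*, and 0.35, 0.22, and 0.46 in WT. Δ*gcn4* did not overlap with any other strain in any of these 3 genes, which their choice by tests on the same arrays favors. *MED4*, of the Mediator complex, read −0.89, −1.08, and −0.90 in Δ*gcn4*, against −0.18, −0.19, and −0.10 in Δ*gcn2*, −0.07, −0.23, and −0.25 in Δ*ire1*, and 0.02, 0.33, and 0.27 in WT. *MIX23*, a mitochondrial protein, read −0.83, −0.97, and −0.93 in Δ*gcn4*, against −0.70, −0.29, and −0.35 in Δ*gcn2*, 0.49, 0.26, and 0.38 in Δ*ire1*, and 0.54, 0.64, and 0.48 in WT (difference from the mean of the 3 −1.07 ± 0.11, SE, adjusted p = 0.0003996). For *MCM16*, of the kinetochore, the Δ*gcn4* mean of −1.29 ± 1.04 rests on replicate 1, at −2.49, since replicates 2 and 3 read −0.62 and −0.77. *MIX23* and *MCM16* are not among the 6 elements, since they did not pass against Δ*gcn2* (limma adjusted p = 0.0556 and 0.1134).

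**Figure D5:**
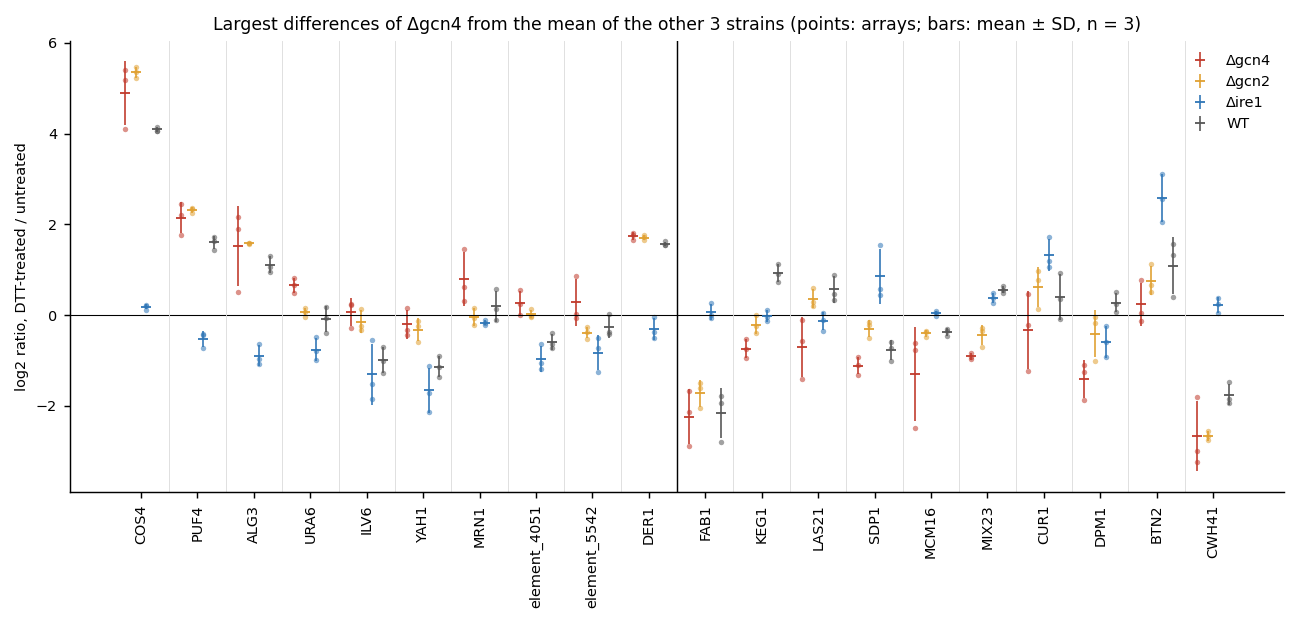
Log2 ratio after DTT, treated over untreated (y axis) for the 10 elements with the highest and the 10 with the lowest difference of Δ*gcn4* from the mean of the other 3 strains (x axis); points are arrays and bars the mean ± SD of 3 arrays of Δ*gcn4*, Δ*gcn2*, Δ*ire1*, and WT. At *COS4*, *PUF4*, *DER1*, *FAB1*, and *CWH41* the Δ*ire1* arrays stand apart from the other strains, while at *URA6* and *MIX23* the Δ*gcn4* arrays do not overlap with any other.

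These counts also moved with single arrays. Without Δ*gcn4* replicate 1 they were 70 higher and 97 lower, without replicate 2 12 and 39, and without replicate 3 13 and 41. Without Δ*gcn2* replicates 1 and 3 they were 44 and 103, and 41 and 95, without WT replicate 1 54 were higher, and without Δ*ire1* replicate 3 they were 164 and 252.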

How the data were processed

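The 12 two-color arrays carry spotted yeast open reading frames, and the deposited values are log2 ratios of DTT-treated over untreated mRNA of 1 strain, as the authors gave them to 3 decimals for 6024 elements with none missing. Scanner software, background correction, and normalization within arrays are not given in the sources used here. Channel signals were not used here, so signal over background is unknown, and precision is limited by having 3 arrays a strain. The ratios were used as deposited, without centering.

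The probe table of GEO's platform gave 1 gene symbol for 5432 elements and none for 592, and 5427 matched RefSeq by gene ID. Elements of 1 gene were kept separate. A mean per strain was fitted to all 12 arrays in limma 3.58.1 (R 4.3.3) with lmFit and eBayes. The Δ*gcn4* mean was tested against 0, and its differences from Δ*gcn2*, Δ*ire1*, WT, and the mean of these 3 were tested as contrasts. All tests were two-sided, with p-values adjusted by Benjamini-Hochberg over 6024 elements at a threshold of 0.05. The code was tested on simulated data. Replicates follow the labels, except for 1 WT array without a number, taken as replicate 1. The p-values measure the spread between these arrays, estimated for each element from all strains together and moderated across elements. They do not follow from the Δ*gcn4* SD printed beside them. For *COS4* that SD was 0.70 and the SE of the fitted mean 0.17, and for *MCM16* they were 1.04 and 0.23.

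Members and gene lists were chosen with earlier results of these data known. Named genes were the 15 highest and 15 lowest means with 1 sign on all 3 arrays, the 10 highest and lowest differences from the mean of the other strains, up to 4 members of each list with the largest means, the source genes of the motifs, and genes altered in the strains. Other genes, such as those with the largest differences from 1 strain, were named after their values were seen. *IRE1* was not analysed here. Alternatives changed the centering, the scaling, a replicate block, the arrays entering the fit, their weights, the moderation of the variance, a minimum mean of 1, and the arrays left out.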

Additional observations from a re-analysis of the deposited data

Results flagged for a closer look

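Tests of Δ*gcn4* against another strain under the same treatment passed the threshold at 113 elements higher and 268 lower against Δ*gcn2*, 772 higher and 797 lower against Δ*ire1*, 52 higher and 117 lower against WT, and 87 higher and 166 lower against the mean of these 3.

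Among the 10 highest differences from that mean, *COS4* lay 1.69 above it, *PUF4* 1.01, *ALG3* 0.92, and *DER1* 0.75, and each of these 4 passed the test of Δ*gcn4* against Δ*ire1* and against neither Δ*gcn2* nor WT. *URA6* lay 0.92 above it, *ILV6* 0.88, and *YAH1*, a mitochondrial ferredoxin, 0.83. *ILV6* and *YAH1* read near 0 in Δ*gcn4* (0.06 ± 0.31 for *ILV6* and −0.21 ± 0.32 for *YAH1*). In Δ*gcn2* they averaged −0.14 ± 0.25 and −0.32 ± 0.25, and neither passed the test of Δ*gcn4* against Δ*gcn2*. Both fell in Δ*ire1* (−1.31 ± 0.68 for *ILV6* and −1.66 ± 0.50 for *YAH1*) and WT (−1.00 ± 0.28 for *ILV6* and −1.14 ± 0.23 for *YAH1*). *MRN1* lay 0.80 above it. An element without a gene name here, element_4051, lay 0.78 above it with 0.00, 0.24, and 0.55 in Δ*gcn4*, and another, element_5542, lay 0.77 above it with 0.87, −0.06, and 0.03, where replicate 1 was far from the others.

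Among the 10 lowest, *CWH41* lay at −1.28 from the mean of the other strains, *BTN2* at −1.24, and *FAB1* at −0.96, and in these the Δ*ire1* arrays were the ones that stood apart. *DPM1* lay at −1.17, *MIX23* at −1.07, and *MCM16* at −1.05. *CUR1*, which sorts misfolded proteins with Btn2, lay at −1.11, with −1.23, 0.47, and −0.23 in Δ*gcn4*, against 0.98, 0.77, and 0.13 in Δ*gcn2*, 1.20, 1.05, and 1.72 in Δ*ire1*, and 0.92, 0.36, and −0.08 in WT, with Δ*gcn4* replicate 1 far below the others. *SDP1*, a phosphatase of a cell wall stress kinase, lay at −1.04, with −1.12 ± 0.19 in Δ*gcn4*, −0.30 ± 0.19 in Δ*gcn2*, 0.85 ± 0.60 in Δ*ire1*, and −0.78 ± 0.22 in WT (SD, n = 3 each). *LAS21*, of GPI anchor synthesis, lay at −0.97 with −0.58, −1.42, and −0.12 in Δ*gcn4*, where replicate 2 was the lowest. *KEG1*, an ER protein of glucan synthesis, lay at −0.96, with −0.74 ± 0.21 in Δ*gcn4*, −0.22 ± 0.19 in Δ*gcn2*, −0.02 ± 0.12 in Δ*ire1*, and 0.92 ± 0.20 in WT, the highest mean.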

How the results depend on the processing

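Of the 171 named genes called in Δ*gcn4* cells, 163 lost the call under no alternative except the minimum mean of 1. Centering each array gave 1540 elements higher in Δ*gcn4*, and centering with scaling 1589. A mean of at least 1 left 110 higher and 287 lower in the response, 6 and 37 against Δ*gcn2*, 122 and 91 against Δ*ire1*, 2 and 48 against WT, and 2 and 7 against the mean of the other strains. Centering left 175 lower than in Δ*gcn2*, and scaling left 25 higher and 32 lower there and gave 239 higher than the mean of the other strains. With only the arrays compared, 521 were lower than in Δ*ire1* and 23 higher than in WT. Array weights gave 240 higher and 541 lower against Δ*gcn2*, 141 higher against WT, and 350 higher and 444 lower against the mean of the others. The causes of these shifts were not tested.

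With each array left out in turn, 663 to 1013 elements were higher and 1907 to 2434 lower in Δ*gcn4*. Against Δ*gcn2* the ranges were 7 to 169 higher and 18 to 382 lower, against Δ*ire1* 512 to 853 and 508 to 877, against WT 18 to 76 and 77 to 140, and against the mean of the others 12 to 164 and 39 to 252. Of the 20 largest differences from that mean, 11 lost the call without Δ*gcn4* replicate 3. *ALG3* lost it under 11 settings, *CUR1* and *MCM16* under 9 each, and *ILV6* and element_5542 under 8 each.

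Strains share replicate numbers in the labels, except that 1 WT title carries no number and was taken as replicate 1. Deviations of same-numbered arrays from their strain means correlated, for replicates 1, 2, and 3, at 0.079, 0.244, and 0.262 between Δ*gcn4* and Δ*gcn2*, at 0.149, −0.046, and 0.130 between Δ*gcn4* and Δ*ire1*, and at 0.082, 0.276, and 0.293 between Δ*gcn4* and WT. Arrays with different numbers correlated at −0.454 to 0.247 for Δ*gcn2*, −0.221 to 0.178 for Δ*ire1*, and −0.517 to 0.299 for WT. The main fit paired no arrays, and whether a number marks a shared experiment cannot be told from these values. With a replicate block, 1006 elements were higher and 2425 lower in Δ*gcn4*, and the counts were 166 and 400 against Δ*gcn2*, 865 and 929 against Δ*ire1*, 64 and 137 against WT, and 129 and 234 against the mean of the others.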
